A study of Mus musculus with 16 samples.

Results

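Whole pancreas of control mouse embryos at embryonic day 16.5 (E16.5) was compared with pancreatic islets of control adult mice. The 8 libraries concerned, of 16 in the series, were taken by genotype, tissue and stage from the labels. They were 3 E16.5 pancreata (embryos 02, 08 and 13) and islets of 5 male mice aged 60 weeks (animals 052, 826, 829, 857 and 858). Every one of these animals had the genotype Tff2fl/fl, which is homozygous for a floxed allele of the trefoil factor gene Tff2, and none carried Cre recombinase. Embryonic pancreata were dissected away from the gut, stomach and spleen and taken whole. Islets were freed with collagenase, enriched on a density gradient and picked by hand, a step meant to reduce exocrine tissue. The comparison asked which genes set the fetal organ apart from adult islets when the targeted gene is intact. Tissue, age, sex and the table in which the counts were deposited all changed together between the groups, so their parts in any difference cannot be told apart.

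The fetal mouse pancreas at this stage is a branching epithelium inside a loose mesenchyme. Cells at the branch tips become acinar cells and fill with digestive enzymes, while the trunk of each branch gives rise to duct cells and to progenitors that switch on Neurog3 briefly and become endocrine cells. Adult islets are compact clusters of hormone cells, mostly insulin-producing beta cells with glucagon-producing alpha cells and rarer delta, PP and epsilon cells, supplied by a dense capillary bed. In bulk RNA of this kind, fewer cells of a type and less RNA per cell cannot be told apart, which holds for each level given here.

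The control libraries held 17874060 to 22699934 counts per pancreas and 23063661 to 31721424 per islet sample. Levels are given as CPM, read counts relative to library size scaled with TMM factors, and 15388 of 24091 genes had enough counts to be tested. Correlations of log2(CPM + 1) across these genes ranged from 0.995 to 0.997 among pancreata, from 0.993 to 0.997 among islets and from 0.714 to 0.722 between them. Xist, transcribed from the inactive X chromosome of female cells, stood at 977, 1522 and 998 CPM in the 3 pancreata and at 0.0340 to 0.487 CPM in the islets. Ddx3y, a gene of the Y chromosome, stood at 0 to 0.155 CPM in pancreata and 113 to 136 CPM in islets. The 3 control embryos thus had the expression pattern of females and the islet donors that of their labelled male sex.

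Genes with near-identical copies elsewhere in the genome were counted very differently in the 2 tables, and this is given before the results because it bears on how some of them read. For each gene, the share of its 30-base windows found in no other annotated gene was computed, and 7765 tested genes had a unique share above 99%. Gapdh, a glycolytic enzyme with many processed pseudogenes and a unique share of 37.2%, was at 0.984 to 1.36 CPM in control pancreata and 244 to 282 CPM in control islets. The knockout libraries of the same tables held the same gap, with 0.967 to 1.22 CPM in pancreata and 273 to 324 CPM in islets. Among 62 ribosomal protein genes with a unique share under 75%, 21 were lower in pancreas by more than 4 on the log2 scale, against 2 of 17 with a higher share. Over all tested genes the median log2 fold change (pancreas minus islets) was -0.81 for the 219 genes with a unique share below 25% and 0.12 above 99%. Levels of genes with a low unique share are therefore not comparable between these tables, and a share below 90% is given beside the values of a named gene. The exceptions, between 85.59% and 89.56%, are Xist, Ifit1, Cdkn1a, Spp1, Meg3, Dnajb9, Aldh1a1, Nkx2-2, Syt4 and Neurod1. What made the tables differ was not tested.

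**Figure D1:**
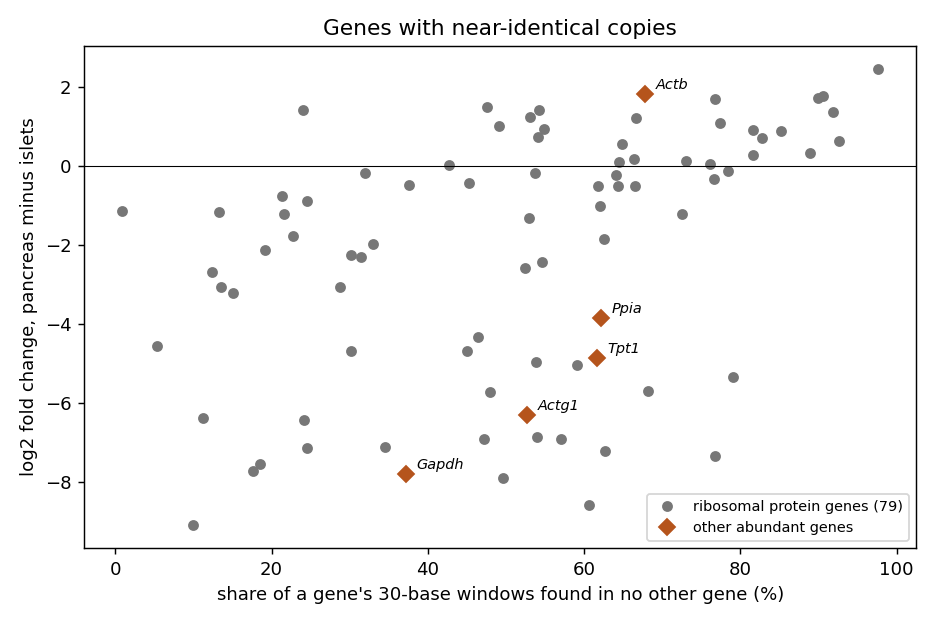
Each point is a gene, placed by the share of its 30-base windows found in no other gene (x axis, percent) and by its log2 fold change between control E16.5 pancreas and control islets (y axis). Grey points are 79 ribosomal protein genes and diamonds are other abundant genes; Gapdh lies at -7.81 and Actg1 (unique share 52.73%) at -6.31, while Actb (unique share 67.8%) lies at 1.82.

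Most genes differed between the fetal organ and adult islets. With the edgeR quasi-likelihood test at an adjusted p of 0.05, 6875 genes were higher (44.7%) and 6428 lower (41.8%) in E16.5 pancreas, together 86.5% of the genes tested. A test against a minimum change of 2-fold called 3728 genes higher (24.2%) and 2935 lower (19.1%), and these calls are the ones counted for each gene group below. The groups did not overlap at all for 83.9% of genes, so separation alone marks no gene out, and the median log2 fold change over all genes was 0.04. Under scaling by library totals that median moved by 0.19, and 62.5% of the 2-fold calls were higher in pancreas against 56% with TMM factors.

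Differences were ranked among genes with a mean of at least 20 CPM in the higher tissue, leaving out predicted and clone-named genes. The gene with the largest difference in favour of fetal pancreas was H19, an imprinted noncoding RNA of growing tissues on chromosome 7 (142575530 to 142578146, mm10). It stood at 8847, 8809.8 and 7872 CPM in the 3 pancreata, while the 5 islet libraries together held 2 reads of it, a ratio of 535872-fold (95% counting interval 148344 to 4424880). Next came Serpina6, which encodes the corticosteroid-binding globulin of plasma, at 533, 791 and 531 CPM in pancreas and with no read in any islet library. Against a floor of 3 counts over the islet group it was at least 25653-fold higher in pancreas. Agtr2, an angiotensin receptor abundant in fetal mesenchyme, was at least 6224-fold higher and the anion transporter gene Slc26a9 at least 4335-fold higher by the same floor. In the other direction, apart from genes of the Y chromosome, the greatest differences were for Pdyn, the precursor of the dynorphin peptides, then Akain1 and then Ucn3, the urocortin 3 of mature beta cells. Pdyn held 3 reads over the 3 pancreata, all in embryo 08, and 232, 129.7, 222, 223 and 240.4 CPM in the islets, a ratio of 4473-fold (95% counting interval 1530.3 to 21689) in favour of islets. Akain1 stood at 0 to 0.0502 CPM in pancreas and 25.1 to 27.0 CPM in islets. The secretory immunoglobulin receptor gene Pigr, at 46.3 to 79.1 CPM in islets and 0 to 0.246 CPM in pancreas, and Defb1, an epithelial antimicrobial peptide, at 43.8 to 63.5 and 0.0502 to 0.205 CPM, were also among the 15 largest. So were Rpl23a and Rps29, whose unique shares of 9.981% and 60.66% place them with the genes above.

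**Figure D2:**
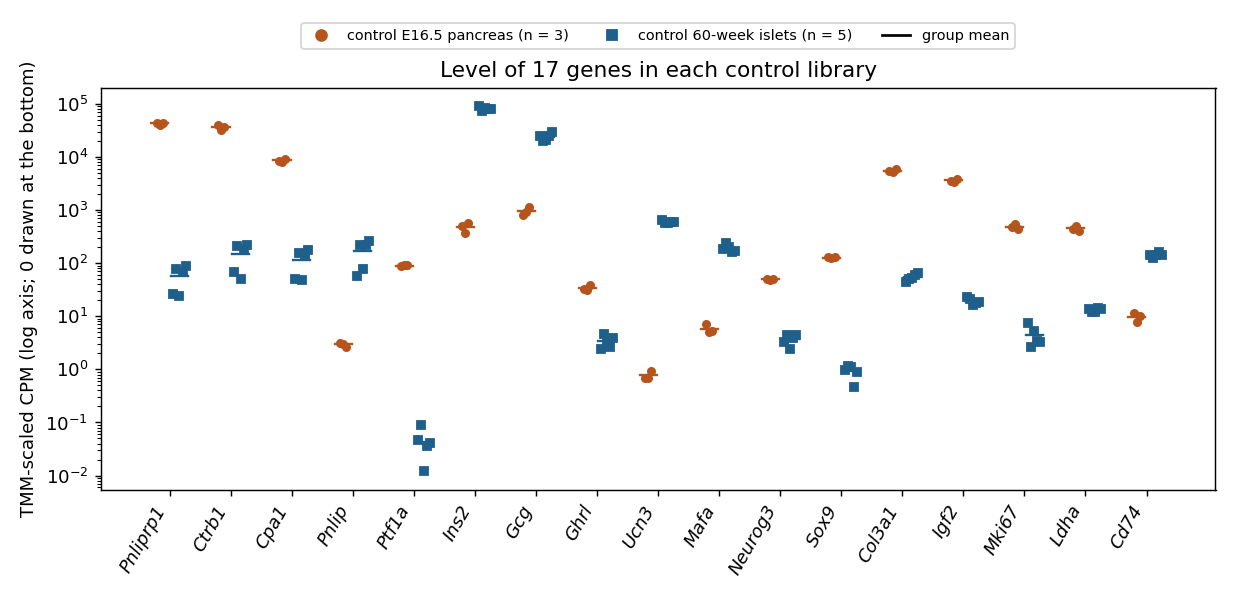
TMM-scaled CPM (log axis) of 17 genes in each control library, circles for the 3 E16.5 pancreata and squares for the 5 islet samples, with group means as lines. Acinar, mesenchymal, growth and proliferation genes sit higher in pancreas, and hormone and adult beta cell genes sit higher in islets, with Ghrl the hormone gene on the other side.

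Acinar enzyme genes took a large share of the reads of the fetal organ and very little of the islets'. The 37 acinar secretory genes of both lists took 13.4% ± 1.20 of all counts (SD, n = 3) in pancreas and 0.133% ± 0.0725 (SD, n = 5) in islets, an exact two-sided permutation p of 0.0357, the smallest that 3 against 5 samples allow. Some of the 37, among them trypsinogens and amylases, have low unique shares, so these sums are subject to the difference between the tables. An amylase gene with a unique share of 0% had no count in any control library. The genes that took the most counts in pancreas had unique shares of 100%. Of 18 tested proteases and inhibitors, 16 were at least 2-fold higher in pancreas and none lower, with a median log2 fold change of 5.61. Ctrb1, the precursor of chymotrypsin, stood at 39186, 31877 and 37337 CPM in pancreata 02, 08 and 13 and at 67.6, 208, 51.1, 186 and 218 CPM in islets 052, 826, 829, 857 and 858. That is a 247-fold difference (log2 fold change 7.95, SE 0.479, edgeR adjusted p = 6.12e-09). Cpa1, a carboxypeptidase precursor that also marks branch tips, was at 8496, 8027 and 9237 CPM in pancreas and 48.4 to 176 CPM in islets, 74.9-fold apart (log2 fold change 6.23, SE 0.421, edgeR adjusted p = 1.94e-08). In both genes every pancreas lay far above every islet sample, while the islet samples split into 2 lower and 3 higher libraries. Ctrl, a chymotrypsin-like protease, was the exception with unique sequence, at 74.7, 36.0 and 89.7 CPM in pancreas and 21.8 to 67.1 CPM in islets (edgeR adjusted p = 0.201). Try4, a trypsinogen with a unique share of 16.19%, did not pass either.

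Lipases and other secretory products divided. Of 16 tested members, 11 were at least 2-fold higher and 2 lower in pancreas (median 4.20). Pnliprp1, a pancreatic lipase-related protein, took the most reads of any acinar gene in the fetal organ, at 43693, 39836 and 44274 CPM against 26.7, 77.9, 24.5, 66.8 and 87.4 CPM in the islet samples (log2 fold change 9.55, SE 0.452, edgeR adjusted p = 5.65e-10). Pnlip, the classical pancreatic triglyceride lipase of the adult gland, ran the other way at 3.15, 3.06 and 2.64 CPM in pancreas and 58.3, 218, 76.6, 222 and 266 CPM in islets, 56.6-fold higher in islets (log2 fold change -5.82, SE 0.605, edgeR adjusted p = 1.35e-06). No islet sample was as low in Pnlip as any pancreas, although most acinar genes were far lower there. Within the counts of the 37 acinar genes of each library, Pnlip took 0.00200 to 0.00279% in pancreas and 10.1 to 12.9% in islets. Pnliprp1 took 33.6 to 36.3% and 3.73 to 4.6%, and Ctrb1 28.3 to 30.2% and 8.62 to 11.7%. Ctrl took 0.0328 to 0.0680% and 3.11 to 3.79%. Gp2, a membrane protein of zymogen granules, took 0.00993 to 0.0108% and 0.537 to 0.803%. The acinar RNA present in the islet samples thus had another makeup than that of the fetal gland, richer in Pnlip, Ctrl and Gp2 and poorer in Pnliprp1. The regenerating islet-derived gene Reg2, the other member lower in pancreas, was low everywhere, at 0.238 to 1.15 CPM in islets and 0 to 0.104 CPM in pancreas, where it rested on 3 reads, a counted ratio of 14.4-fold (95% counting interval 4.75 to 71.1) in favour of islets (unique share 83.28%).

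The promoters of Pnliprp1, Ctrb1 and Pnlip are shown because the first pair led the fetal transcripts and the last ran against them. Acinar genes are classically bound by a complex of PTF1A, an E-protein and an RBPJ-type factor, which reads an E-box (CANNTG) next to a TC-box (TTTCCC). Each sequence covers 250 bases before and 50 bases from the start of the gene, 5′ to 3′ on the strand of the gene, from RefSeq on GRCm38.p6, with matches to either motif on either strand in capitals.
Pnliprp1 (chr19:58728637-58728936, plus strand): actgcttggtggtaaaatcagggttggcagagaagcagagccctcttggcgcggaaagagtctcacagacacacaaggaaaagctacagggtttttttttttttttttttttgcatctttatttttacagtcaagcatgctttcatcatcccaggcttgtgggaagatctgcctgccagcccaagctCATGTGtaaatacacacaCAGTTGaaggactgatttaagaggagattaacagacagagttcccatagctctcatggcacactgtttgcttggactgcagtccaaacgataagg
Ctrb1 (chr8:111690961-111691260, minus strand): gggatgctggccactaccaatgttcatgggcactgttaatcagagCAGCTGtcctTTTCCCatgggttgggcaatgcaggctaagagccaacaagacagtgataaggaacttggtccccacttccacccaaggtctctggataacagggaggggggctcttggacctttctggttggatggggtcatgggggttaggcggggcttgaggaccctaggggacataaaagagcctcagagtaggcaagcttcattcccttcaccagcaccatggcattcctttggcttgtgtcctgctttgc
Pnlip (chr19:58670115-58670414, plus strand): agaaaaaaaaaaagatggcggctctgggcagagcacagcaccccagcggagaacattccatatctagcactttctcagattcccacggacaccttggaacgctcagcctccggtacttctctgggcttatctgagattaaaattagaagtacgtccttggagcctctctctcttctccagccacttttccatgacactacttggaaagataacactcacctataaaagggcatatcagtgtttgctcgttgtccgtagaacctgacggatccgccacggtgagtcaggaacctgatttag
The Ctrb1 window held 1 E-box and 1 TC-box, the Pnliprp1 window 2 E-boxes and no TC-box, and the Pnlip window neither. Over 32851 RefSeq windows of this length, 72.3% held at least 1 E-box and 25.2% a TC-box, so a match is common and describes the letters only.

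Acinar transcription factors were higher in pancreas in 7 of 8 cases by the 2-fold test (median 4.83). Ptf1a, which specifies acinar cells and early pancreatic progenitors, stood at 88.2, 90.8 and 90.8 CPM in the pancreata and 0.0459, 0.0886, 0, 0.0363 and 0.0413 CPM in islets (log2 fold change 10.96, SE 0.141, edgeR adjusted p = 1.79e-14; unique share 62.34%). Its partner in mature acinar cells, Rbpjl, was at 303, 304 and 305 CPM and 0.0680 to 0.496 CPM (log2 fold change 10.23, SE 0.168, edgeR adjusted p = 6.43e-14). Both were near 0 in every islet library, including those with more acinar enzyme RNA. Ptf1a, like Pdx1, Pax6 and Xist, lies beside or across an antisense gene, and with no strand setting stated for the counting, reads of the partners cannot be told apart. Bhlha15, which shapes the secretory apparatus of acinar cells, differed by only 2.96-fold, from 89.1 to 158 CPM in islets to 317 to 368 CPM in pancreas. Xbp1, a factor of secretory cells of every kind, was at 386 to 406 CPM in pancreas and 345 to 375 CPM in islets and missed the 2-fold test.

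The residual acinar RNA of the islets was uneven. Summed over the 37 genes, islets 052 and 829 had 579 and 593 CPM, and islets 826, 857 and 858 had 1807, 1792 and 2156 CPM. The pancreata ranged from 109812 to 131944 CPM, so the difference between tissues exceeded the spread among islets many times over. The part of this RNA in other results was not tested.

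Hormone genes gave the mirror image. Together the 8 islet hormone genes took 16.3% ± 0.903 of all counts in islets (SD, n = 5) and 0.246% ± 0.0367 in E16.5 pancreas (SD, n = 3; exact two-sided permutation p = 0.0357). Of the 8, 7 were at least 2-fold lower in pancreas and 1 was higher, with a median log2 fold change of -5.36. Ins2 stood at 508, 366 and 561 CPM in pancreata and 89476, 74764, 85154, 79739.9 and 80284 CPM in islets (log2 fold change -7.42, SE 0.183, edgeR adjusted p = 1.24e-12). Gcg, the glucagon gene, stood at 823, 918 and 1156 CPM and 25190.5, 19927, 20639, 24903 and 29604 CPM (log2 fold change -4.64, SE 0.177, edgeR adjusted p = 7.03e-11). Ins2 RNA was thus 171-fold lower and Gcg RNA 24.9-fold lower in the fetal organ. Per kilobase of gene model, Gcg reached 890.1 and Ins2 823 CPM in pancreas, against 22168 and 140935 CPM in islets. Ppy, the pancreatic polypeptide gene, showed the widest hormone difference (11.1, 8.83 and 11.5 CPM and 2036 to 2685 CPM, 218-fold), and Pyy, the peptide YY gene of the earliest endocrine cells, the narrowest of those lower (102, 80.0 and 104 CPM and 1081 to 1189 CPM, 11.8-fold). Ghrl, the ghrelin gene of epsilon cells, which are mostly a fetal cell type, was at 32.3, 31.8 and 39.4 CPM in pancreas and 2.39, 4.65, 3.16, 2.65 and 3.97 CPM in islets (log2 fold change 3.36, SE 0.162, edgeR adjusted p = 6.78e-10). It was 10.3-fold higher in the fetal organ although every other hormone was lower.

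The makeup of the hormone RNA differed as well. Ins1 and Ins2 took 35.0% ± 3.59 of hormone counts in pancreas (SD, n = 3) and 71.2% ± 1.56 in islets (SD, n = 5). Ins1, the rodent-specific insulin gene that lacks an intron of Ins2, made up 40.2% ± 0.535 of insulin counts in pancreas (SD, n = 3) and 33.0% ± 0.611 in islets (SD, n = 5). For each share the exact two-sided permutation p was 0.0357, which stayed 0.0357 after Benjamini-Hochberg adjustment over the 8 planned shares. This smallest possible p is reached whenever the groups do not overlap, which held for 83.9% of the genes tested, so it marks no share out. Ins1 and Ins2 have unique shares of 95.16% and 96.51%, so a different treatment of shared reads between the tables could move the ratio, which was not tested.

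Genes of the secretory granule and of adult beta cell function were mostly lower in pancreas. Among 16 granule and prohormone processing genes 15 were at least 2-fold lower (median -4.39). The granule proteins Chga and Scg2 stood at 128 to 163 and 110 to 130.4 CPM in pancreas against 12444 to 13939 and 10035 to 12498 CPM in islets, while the processing enzyme gene Cpe stood at 431 to 489 against 4362 to 5235 CPM. The exception was Slc18a2, the vesicular monoamine transporter, whose 2-fold call was lost with DESeq2, at 5.49, 7.03 and 7.77 CPM and 1.56, 1.33, 1.67, 3.23 and 2.89 CPM (3.13-fold higher in pancreas). Of 25 genes of adult beta cell function 22 were lower and 1 higher by the 2-fold test (median -3.35). Ucn3, a late maturity marker of beta cells, stood at 0.697, 0.703 and 0.932 CPM in pancreata and 647, 566, 580, 592 and 589 CPM in islets (log2 fold change -9.58, SE 0.114, edgeR adjusted p = 1.26e-14). Mafa, the beta cell maturation factor, stood at 7.09, 5.07 and 5.38 CPM and 187, 241, 202, 159.9 and 169.5 CPM (log2 fold change -5.02, SE 0.170, edgeR adjusted p = 2.18e-11). Prlr, the prolactin receptor, was 331-fold lower, Glp1r, the incretin receptor, 111-fold and G6pc2, an islet glucose-6-phosphatase, 99.3-fold. Pdx1, a factor that founds the pancreas and that progenitors also use, was 4.99-fold lower. Nupr1, a stress-inducible nuclear protein also found in acinar cells, was the 1 member higher in pancreas (3.86-fold). Exocytosis and excitability genes followed the same direction, with 18 of 20 lower and none higher, among them the synaptotagmins Syt4 (109-fold) and Syt13 (13.8-fold) and the SNARE gene Snap25 (28.2-fold). Stx1a, another SNARE gene, was at 7.18 to 9.32 CPM in pancreas and 7.34 to 9.43 CPM in islets and passed neither test.

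Because endocrine RNA is a small part of the whole fetal organ, the libraries were also scaled to the summed counts of 13 pan-endocrine genes, and this scale is read for endocrine genes only. The summed level of those 13 was 1312 to 1512 CPM in pancreas and 35109.8 to 39648 CPM in islets, 26.7-fold apart. Of the 13, 9 were granule and processing genes. Per 1000 reference counts, Chga held 97.4 to 110 in pancreas and 323 to 358 in islets, and Scg2 83.8 to 86.2 and 275 to 315. Cpe held 323 to 333 in pancreas and 123 to 132 in islets. The other 4 were transcription factors (Pax6, Isl1, Rfx6 and Nkx2-2), only 6.42-fold apart in sum. The choice of reference thus moves every value by about 2 log2 units, and both are given. Isl1, also a gene of pancreatic mesenchyme, stood at 38.5 to 44.9 CPM in pancreas and 149 to 172 CPM in islets, and the part of mesenchymal RNA in the 4-factor reference was not tested. All genes tested had a median of 4.78 on the 13-gene scale and 2.72 on the 4-factor scale, with 97% and 90.7% called higher and 1.1% and 5.03% called lower in pancreas at an adjusted p of 0.05.

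On both scales the same hormones and receptors stood lower per unit of reference RNA in the fetal organ. Ins2 was at -2.69 on the 13-gene scale and -4.75 on the 4-factor scale, and Iapp, the amyloid peptide co-secreted with insulin, at -1.35 and -3.42. Ucn3 was at -4.86 and -6.91, Prlr at -3.64 and -5.70, Glp1r at -2.07 and -4.12, G6pc2 at -1.89 and -3.96 and Ppy at -3.03 and -5.09, each past the edgeR threshold on both. Gcg was at 0.10 (not past the threshold) and -1.96 (past it). Direction depended on the reference for a number of genes. Among them were Sst, the somatostatin gene (0.26 and -1.79), Pyy (1.17 and -0.89) and Nkx6-1, a beta cell identity factor (1.63 and -0.43). Neurod1 (1.53 and -0.52) and Insm1 (1.71 and -0.35) also changed sign. Of 25 adult beta cell genes, 6 were lower and 16 higher on the 13-gene scale, and 15 lower and 8 higher on the 4-factor scale.

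**Figure D3:**
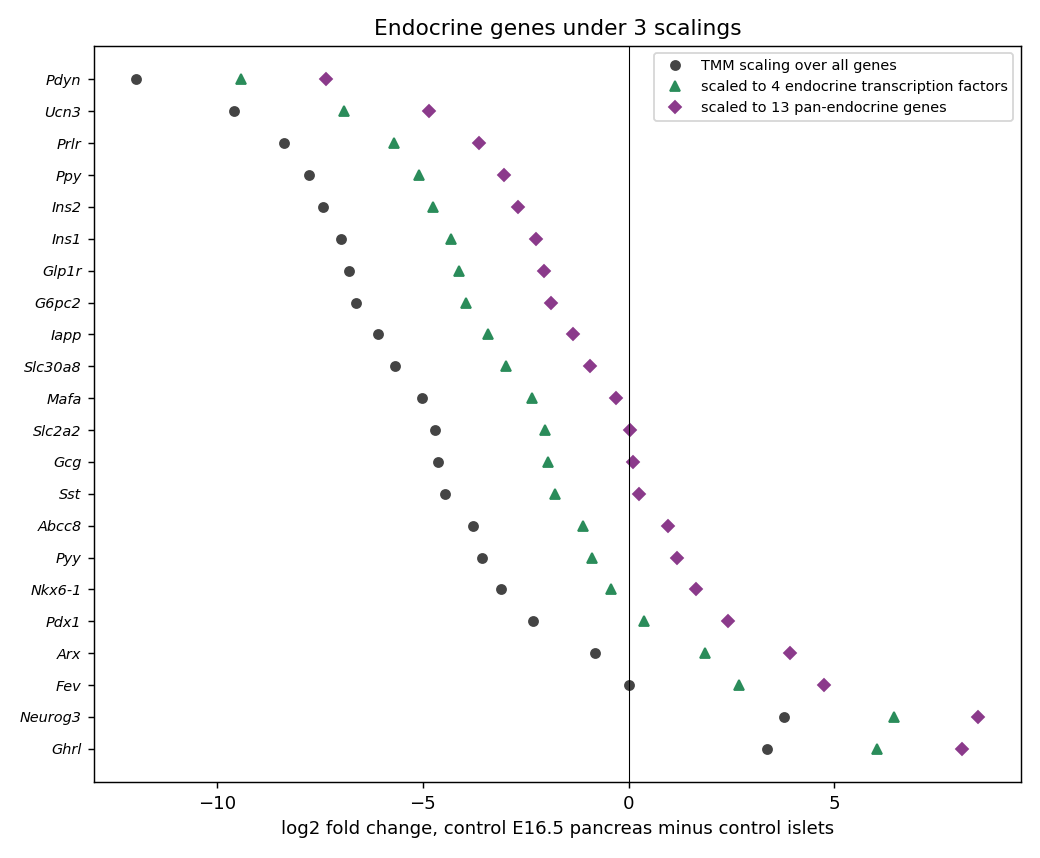
Log2 fold change of control E16.5 pancreas minus control islets (x axis) for 22 endocrine genes under 3 scalings: TMM over all genes (circles), counts of 4 endocrine transcription factors (triangles) and counts of 13 pan-endocrine genes (diamonds). Pdyn, Ucn3, Prlr, Ppy and Ins2 lie left of 0 under all 3, and Neurog3 and Ghrl lie right of 0 under all 3.

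Endocrine progenitor genes were mixed. Of 25 tested, 8 were at least 2-fold higher and 7 lower in pancreas, against 24.2% and 19.1% of all genes, with a median of -0.06 (0.12 under library totals). Neurog3, the switch for endocrine fate, stood at 51.2, 47.9 and 49.7 CPM in pancreata and 3.26, 4.43, 2.41, 3.85 and 4.38 CPM in islets (log2 fold change 3.77, SE 0.134, edgeR adjusted p = 3.55e-11; unique share 83.79%). Pax4, which directs beta and delta fates in its wake, was at 3.26 to 3.56 CPM in pancreas with no read in 5 islet libraries, at least 143-fold higher. Neurod2 was at least 96.0-fold higher by the same floor, at 2.09 to 2.48 CPM in pancreas. The lower members included factors that mature islet cells keep, such as St18 (13.5-fold), Neurod1 (9.23-fold) and Insm1 (8.15-fold). Fev, a serotonergic factor of endocrine precursors, was at 6.21 to 7.17 CPM in pancreas and 5.66 to 8.48 CPM in islets, and its groups overlapped (edgeR adjusted p = 0.99). All 25 genes of this list were higher on the 13-gene endocrine scale, and 21 were higher and 3 lower on the 4-factor scale. Of all genes, 97% and 90.7% were called higher on these scales.

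Genes of alpha, delta, PP and epsilon cells were mixed. Of 15 alpha cell genes 7 were at least 2-fold lower and 4 higher, against 19.1% and 24.2% of all genes. The lower members numbered 5 under library totals and 6 with DESeq2 or limma-voom. Tm4sf4 was 5.43-fold lower and Irx2 2.40-fold lower, while Slc38a5, an amino acid transporter also used by acinar and proliferating cells, was 34.6-fold higher in pancreas. Fap, an alpha cell marker that is also a fibroblast protease, was 48.1-fold higher. For delta, PP and epsilon cells 8 of 13 were lower and 2 higher, with Ghrl of epsilon cells, given above, among the higher. Under library totals 3 were higher, and 1 was when at least 10 counts were required in every library of 1 group. The lower ones included the somatostatin receptor Sstr3 (36.4-fold) and the ghrelin receptor Ghsr of delta cells (39.7-fold). Ghsr was sparse in pancreas, at 0.0685 to 0.142 counts per 1000 counts of the 13 reference genes, so its fold is limited by depth. It was at -0.64 on the 13-gene scale (not past the threshold) and -2.67 on the 4-factor scale (past it).

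Genes that adult beta cells keep silent, often called disallowed genes, were mostly higher in the fetal organ. Of 22 tested, 20 passed the 2-fold test as higher and none as lower, with a median of 3.84. Ldha, the lactate dehydrogenase subunit, stood at 442, 509.5 and 397 CPM in pancreas and 13.7, 11.8, 12.3, 14.1 and 13.6 CPM in islets (log2 fold change 5.10, SE 0.0902, edgeR adjusted p = 1.05e-13; unique share 77.16%). Slc16a1, the lactate and pyruvate carrier, stood at 54.2, 60.2 and 61.6 CPM and 1.70, 1.51, 0.816, 1.49 and 1.36 CPM (log2 fold change 5.43, SE 0.129, edgeR adjusted p = 8.94e-13). The neuronal repressor gene Rest was 26.2-fold, catalase (Cat) 24.2-fold and Mgst1, a glutathione transferase, 71.1-fold higher. Several of these, among them Pdgfra, Cxcl12 and Igfbp4, are also genes of mesenchyme, and the summed level of 20 fibroblast and matrix genes was 19809.7 to 23345 CPM in pancreas and 339 to 425 CPM in islets. The part of that RNA in this group was not tested.

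Duct, trunk and tip genes were mostly higher in the fetal organ. Of 16 duct and trunk genes, 11 were at least 2-fold higher and none lower (median 4.46). Sox9, which maintains pancreatic progenitors and ducts, stood at 129, 123 and 131 CPM in pancreata and 0.964, 1.15, 1.12, 0.472 and 0.910 CPM in islets (log2 fold change 7.11, SE 0.123, edgeR adjusted p = 9.06e-14). The tight junction gene Cldn10 was at 198 to 253 CPM in pancreas and 0 to 0.354 CPM in islets, 1479-fold apart, and Spp1, the osteopontin of duct cells, at 616 to 649 and 21.0 to 39.5 CPM. Krt7, a duct keratin, ran the other way at 62.5 to 83.3 CPM in pancreas and 138 to 159 CPM in islets but missed the 2-fold test. Prom1, found in duct and progenitor cells, was at 198 to 239 CPM in pancreas and 178 to 208 CPM in islets. Of 16 genes of multipotent progenitors and tips 11 were higher and 2 lower, with Myc 23.5-fold, the growth factor receptor Fgfr2 51.7-fold and Sox11 114-fold higher. The lower members were Foxa2 and Mnx1, which adult islet cells also use. General epithelial genes differed less, 8 of 15 being higher and 1 lower, with a median of 1.24, Epcam at 251 to 293 CPM in pancreas against 135 to 147 CPM in islets and Cdh1 at 617 to 765 against 506 to 538 CPM, neither past the 2-fold test.

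Mesenchymal genes were mostly higher in the fetal organ. Of 20 fibroblast and matrix genes 19 were at least 2-fold higher in pancreas, none was lower and the median was 5.70. Col3a1, a fibrillar collagen, stood at 5405, 5128 and 5967 CPM in the pancreata and 45.0, 49.6, 52.6, 59.8 and 64.5 CPM in the islets (log2 fold change 6.66, SE 0.122, edgeR adjusted p = 1.33e-13). Fbn2, the fibrillin of developing matrix, was 1286-fold higher, and Fbn1, its counterpart in adult matrix, 52.6-fold (unique share 79.9%). Thy1 was the member short of the 2-fold test, at 13.7 to 19.7 and 5.81 to 12.8 CPM. Of 19 mesenchymal factors 15 were higher, among them Fgf10, which drives branching (349-fold), and Osr1 (171-fold). The single factor lower was Isl1, which is also an islet cell gene and 1 of the 4 endocrine reference factors. Smooth muscle and pericyte genes were higher in 10 of 12 cases, such as Actg2 (90.3-fold) and Kcnj8 (18.6-fold), while Rgs5 was 3.97-fold lower and Myh11 stood at 22.3 to 33.8 CPM in pancreas and 21.6 to 36.8 CPM in islets. Mesothelium, the sheet that covers the fetal organ, was marked by Upk3b at 67.0, 69.8 and 102 CPM with no read in islets (at least 3279-fold higher) and by Wt1 at 45.7, 42.9 and 62.2 CPM with 1 read over the islet libraries (ratio 6255-fold (95% counting interval 1122 to 247128)). Of 7 mesothelial genes 6 were higher, and their median with such genes set to their counted bounds was 11.31. Msln, another mesothelial gene, stood at 11.5, 11.6 and 22.6 CPM in pancreas and 56.6, 27.0, 23.8, 35.5 and 36.3 CPM in islets and missed the 2-fold test.

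**Figure D4:**
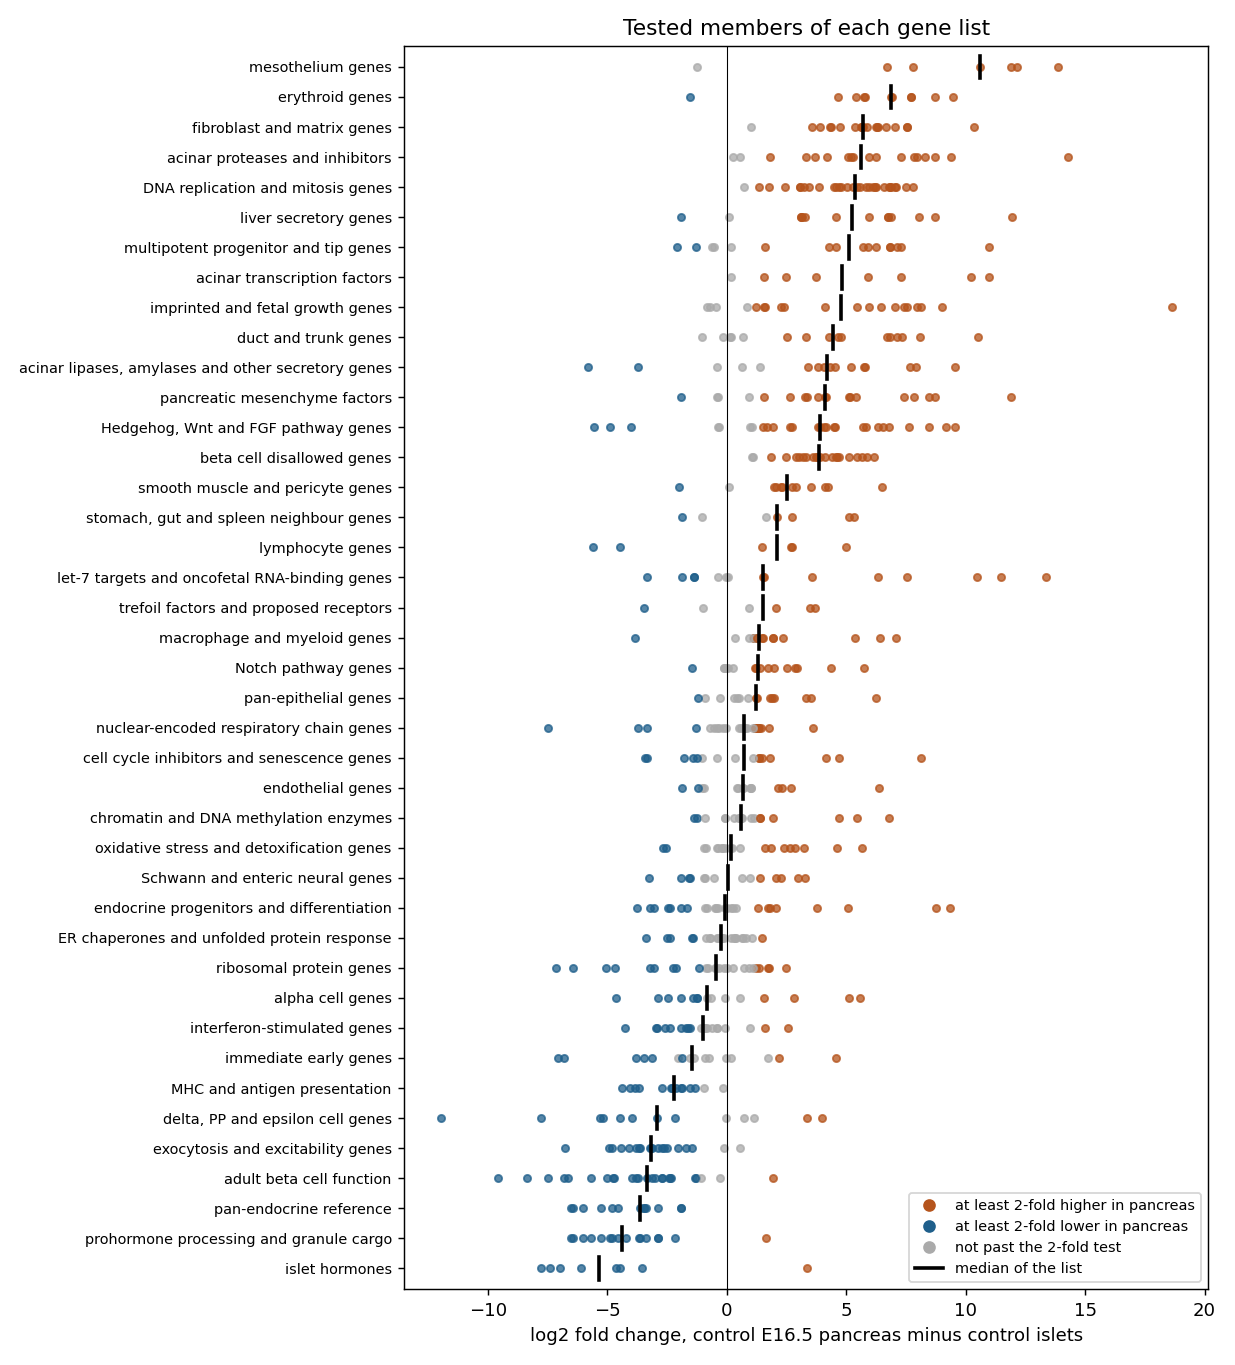
Log2 fold change of control E16.5 pancreas minus control islets (x axis) for every tested member of 41 gene lists (rows, ordered by median), coloured by the 2-fold test, with the list median as a black bar. Matrix, acinar and DNA replication lists lie to the right, hormone, granule and exocytosis lists to the left, and the ribosomal, respiratory and ER lists spread around 0.

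Endothelial and nerve-associated genes did not share 1 direction. Of 15 endothelial genes 4 were higher and 2 lower by the 2-fold test, with a median of 0.70 and summed levels of 957 to 1226 CPM in pancreas and 1065 to 1124 CPM in islets. These shares are near those of all genes, and under scaling by library totals 7 were higher and 1 lower. Pecam1, a pan-endothelial adhesion protein, was at 199, 156 and 183 CPM in pancreas and 91.4, 79.7, 88.2, 87.3 and 93.8 CPM in islets. Flt1, a VEGF receptor, was 3.64-fold lower in pancreas and Emcn 2.33-fold lower, whereas Cdh5 was 4.36-fold and Cldn5 81.8-fold higher. Among 14 Schwann and enteric neural genes 5 were higher, led by the glial calcium-binding protein gene S100b (9.64-fold), and 4 lower, led by Elavl4 (9.52-fold), a neuronal RNA-binding protein that islet cells also make. Over all genes, 24.2% were higher and 19.1% lower by the same test.

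Genes typical of red cells and liver were mostly higher in pancreas, at low and uneven levels for liver. Erythroid genes took 0.160% ± 0.0183 of all counts in pancreas (SD, n = 3) and 0.00565% ± 0.00222 in islets (SD, n = 5), and 10 of 11 were higher in pancreas. Hbb-bs, the adult beta globin, stood at 1192, 959 and 1033 CPM and 51.2, 11.5, 14.7, 10.3 and 11.9 CPM, islet 052 being the highest of the islets (unique share 41.29%). The embryonic globin Hbb-y, made by the first red cells of the yolk sac, was at 3.89, 4.17 and 3.16 CPM with no read in islets, at least 157-fold higher. Hbb-y and Hbb-bh1 made up 0.255 to 0.349% of beta globin counts in pancreas. Of 14 liver secretory genes 12 were higher, with Afp, the fetal albumin relative, at 32.9, 41.6 and 82.2 CPM in pancreas and 1 read over the islets, and Alb at 24.1, 24.5 and 90.5 CPM and 0.310 to 1.06 CPM. Pancreas 13 was the highest in both, and its sum of liver genes other than Ttr was 337 CPM against 149.7 and 147 CPM in pancreata 02 and 08. The intestinal gene Fabp1, too low to be tested, was at 0.819, 0.100 and 5.90 CPM, likewise highest in pancreas 13, and the stomach genes Gkn1, Gkn2 and Tff1 had no read in any control library. Of 7 tested genes of stomach, gut and spleen 4 were higher and 1 lower. DESeq2, or no filter on low counts, let further members of this list of 15 be tested, and 7 were then higher and 1 lower. Ttr, a thyroid hormone carrier made by alpha cells as well as liver, was 3.75-fold lower in pancreas.

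Immune genes split by function. Of 16 macrophage and myeloid genes 11 were at least 2-fold higher in pancreas and 1, the antigen presentation gene Cd74, lower (median 1.36), led by the neutrophil gene S100a8 (5.37 to 9.78 CPM against 0 to 0.0827 CPM) and Mrc1, the mannose receptor of tissue macrophages (122, 113 and 111 CPM against 2.76, 1.86, 3.54, 2.94 and 2.73 CPM). The count of higher members depended on the test and the libraries: it was 7 with DESeq2, 8 with limma-voom and 8 without pancreas 13 or islet 826. Csf1r, the growth factor receptor of macrophages, was 3.82-fold higher (unique share 82.7%). In contrast 12 of 14 genes of MHC and antigen presentation were lower and none higher (median -2.20). Cd74, the invariant chain of class II molecules, stood at 11.7, 7.93 and 9.94 CPM in pancreas and 142, 126, 140.1, 164 and 142 CPM in islets (log2 fold change -3.85, SE 0.125, edgeR adjusted p = 1.5e-11). The class II genes H2-Eb1 and H2-Aa were 20.9-fold and 16.7-fold lower and the class I gene H2-K1 3.79-fold (unique share 78.44%), whereas B2m, the class I light chain, was at 95.5 to 119.6 CPM in pancreas and 95.1 to 138 CPM in islets and passed neither test. Class II genes were thus lower in the tissue with the higher macrophage markers. Of 6 tested lymphocyte genes 4 were higher and 2 lower, among them Jchain of plasma cells, at 0.0502 to 0.205 CPM in pancreas and 3.68 to 10.6 CPM in islets. Of 20 interferon-stimulated genes 9 were lower and 2 higher, with Ifit1 19.1-fold and Usp18 7.88-fold lower and Bst2 5.96-fold higher. Among the 13 of them with a unique share of at least 90%, 4 were lower and 2 higher. With DESeq2 and with limma-voom, 7 of the interferon-stimulated genes were lower and 2 higher.

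Fetal growth genes were mostly higher in the fetal organ. Of 20 imprinted and fetal growth genes 16 were at least 2-fold higher in pancreas and none lower (median 4.77). Igf2, the fetal insulin-like growth factor, stood at 3587, 3395 and 3907 CPM in pancreata and 23.0, 20.7, 16.6, 17.6 and 18.5 CPM in islets (log2 fold change 7.56, SE 0.114, edgeR adjusted p = 4.29e-14; unique share 34.14%). Dlk1, a Notch-like protein of fetal tissue, stood at 1146, 1003 and 1118 CPM and 2.25, 1.15, 0.816, 3.67 and 2.52 CPM (log2 fold change 9.03, SE 0.287, edgeR adjusted p = 1.23e-11). Cdkn1c, the imprinted inhibitor of cell division, was 279.9-fold higher (unique share 71.85%) and Gpc3, a proteoglycan that limits growth, 248-fold. The group was not uniform, since Meg3, the noncoding RNA of the Dlk1 locus, stood at 476, 476 and 673 CPM in pancreas and 817, 1405, 728, 599 and 842 CPM in islets, and Peg3 at 1168 to 1256 and 1841 to 2533 CPM. Dlk1 and Meg3, which lie in 1 imprinted cluster, therefore had opposite signs, though Meg3 missed the 2-fold test.

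Of 15 let-7 targets and oncofetal RNA-binding genes 8 were higher and 4 lower (2 lower under library totals). The oncofetal gene Igf2bp1 was at 40.4, 45.4 and 39.6 CPM with 3 reads over the islets, a counted ratio of 1744-fold (95% counting interval 596 to 8464). Hmga2, an architectural chromatin protein of fetal cells, was at 58.8, 67.1 and 53.5 CPM with 2 reads (ratio 3753-fold (95% counting interval 1038 to 31005)), and Igf2bp2 was 188-fold higher. Lin28b, which blocks let-7, was low in both, at 1.15, 1.25 and 0.777 CPM in pancreas and 1 read over the islets, and its relative Lin28a was higher in islets, at 2.43, 3.99, 2.86, 2.87 and 3.14 CPM against 0.151 to 0.621 CPM. Ccnd2, the D-type cyclin of beta cell division, was 3.64-fold lower in pancreas, and Ccnd1 stood at 236 to 248 CPM in pancreas and 210.4 to 304 CPM in islets (unique share 71.84%).

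All 30 DNA replication and mitosis genes were higher in E16.5 pancreas, 29 of them by the 2-fold test (median 5.35). Mki67, a protein of dividing cells, stood at 489, 540.1 and 431 CPM in pancreata and 7.44, 2.61, 5.30, 3.38 and 3.31 CPM in islets (log2 fold change 6.79, SE 0.235, edgeR adjusted p = 2.77e-11). Top2a, the topoisomerase of replicating cells, stood at 413, 449 and 375 CPM and 7.07, 1.59, 3.74, 2.98 and 2.56 CPM (log2 fold change 6.86, SE 0.277, edgeR adjusted p = 1.21e-10), and islet 052 was the highest islet sample for both. Pcna was the member that missed the 2-fold test (52.9 to 59.0 and 31.6 to 38.5 CPM, unique share 61.58%). Inhibitors of the cell cycle did not move as 1 group. Cdkn2b was 10.6-fold lower in pancreas, and Cdkn2a, the locus that accumulates with age in beta cells, had 0, 0.100 and 0.0518 CPM in pancreata and 0.643, 0.221, 0.782, 0.508 and 0.455 CPM in islets, a counted ratio of 11.3-fold (95% counting interval 3.71 to 56.3) in favour of islets. Cdkn1a was 3.46-fold higher and Cdkn1b stood at 76.7 to 83.8 CPM in pancreas and 152 to 169 CPM in islets. Bmi1, which restrains Cdkn2a, was 3.48-fold lower in pancreas (unique share 70.64%). Among 19 chromatin and DNA methylation enzymes 6 were higher and 2 lower by the 2-fold test, against 24.2% and 19.1% of all genes. The other 11 passed in neither direction, and the list's median was 0.60. Uhrf1 and Hells, both tied to replication, were 112-fold (unique share 71.38%) and 43.9-fold higher and the maintenance methyltransferase Dnmt1 3.86-fold. Ezh2, the polycomb enzyme of dividing cells, was 26.1-fold higher and its relative Ezh1 2.40-fold lower.

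Signalling genes of branching epithelium and mesenchyme were mostly higher in the fetal organ. Of 16 Notch pathway genes 10 were higher and 1 lower. Among receptors Notch2 was at 166, 166 and 155 CPM in pancreas and 8.04, 7.84, 8.46, 7.99 and 7.36 CPM in islets (20.4-fold), while Notch4 stood at 14.6 to 21.4 and 18.8 to 20.7 CPM. Of the ligands Jag1 was 7.67-fold higher and Jag2 2.72-fold lower, and the targets Hes1 and Heyl were 5.67-fold and 3.91-fold higher. The modifying enzyme gene Lfng was 54.2-fold higher. Rbpj, through which all Notch receptors act, was at 39.2 to 40.7 CPM in pancreas and 38.2 to 42.1 CPM in islets (unique share 79.8%). Of 27 Hedgehog, Wnt and FGF genes 20 were higher and 3 lower (median 3.88). The ligand Wnt2b stood at 37.2, 33.9 and 48.1 CPM and 0, 0.0443, 0.0680, 0.0726 and 0.124 CPM, and the Hedgehog effectors Gli2 and Gli3 were 56-fold and 79.8-fold higher, though the Hedgehog receptor Ptch1 was at 51.7 to 55.3 and 59.9 to 74.7 CPM. The 3 lower members were Wnt4 (19.1, 15.3 and 19.1 CPM against 301, 288, 314, 254 and 292 CPM, 16.2-fold), and the secreted Wnt antagonists Frzb (29.5-fold) and Sfrp5 (46.4-fold). Their relatives Sfrp1 and Sfrp2 were 22.4-fold and 195-fold higher (unique share of Sfrp2 85.21%), so antagonists of the same family had opposite directions.

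Lists of secretory and metabolic machinery had medians between -0.44 and 0.73. Their counts stand beside 24.2% higher and 19.1% lower over all genes, and the ER list's share of lower members was near the latter. Of 23 ER chaperone and unfolded protein response genes 1 was at least 2-fold higher and 5 lower, with a median of -0.23. The chaperone Hspa5 was at 2309 to 2541 CPM in pancreas and 2674 to 3648 CPM in islets, and the disulfide isomerase P4hb at 2931 to 3081 and 1274 to 1603 CPM. Among the lower members were the stress response genes Dnajb9 (10.3-fold), Ern1 (5.73-fold) and Ddit3 (5.16-fold), while Sel1l, of ER-associated degradation, was 2.79-fold higher. Nuclear-encoded respiratory chain genes were higher in 9 of 25 cases and lower in 4, and 3 of those 4 (Uqcrb, Cycs and Atp5g1) had unique shares of 40.91%, 67.74% and 85.75%. The fourth was Cox6a2, a subunit isoform of muscle and beta cells, at 0.287, 0.151 and 0.0518 CPM in pancreas and 36.1, 27.1, 35.6, 30.03 and 28.5 CPM in islets. Ribosomal protein genes were higher in 5 and lower in 9 of 25 cases, but among the 3 with a unique share of at least 90% all were higher, such as Rps3 (3.42-fold) and Rpl8 (2.56-fold), and none of the 9 lower ones had such a share. Of 20 oxidative stress and detoxification genes 8 were higher, such as Aldh1a1 (50.4-fold), and 2 were lower, Gpx3 (5.90-fold) and Aldh1a3 (6.34-fold).

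Immediate early genes varied widely among the islet libraries. Fos, an early response gene that also responds to tissue dissociation, stood at 3.65, 3.76 and 4.45 CPM in pancreata and 1631, 85.3, 180.4, 180.3 and 564 CPM in islets. Egr1 stood at 29.9, 24.5 and 37.7 CPM and 1289.9, 71.7, 138, 142 and 474 CPM. The summed level of the list was 6368 CPM in islet 052, 2271 CPM in islet 858, 496 to 842 CPM in the other islets and 369 to 437 CPM in pancreata. Of 16 genes 6 were lower and 2 higher in pancreas by the 2-fold test, and without islet 052 6 were lower and 3 higher. Leaving out that library moved the list's median from -1.46 to -0.89, and limma-voom and edgeR's robust fit each called 2 genes lower.

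Tff2, the gene floxed in these animals and intact in both groups, is a secreted peptide of mucous cells on chromosome 17 (31141062 to 31144282, mm10). It stood at 34.7, 20.4 and 31.6 CPM in the pancreata and 1.15, 3.06, 1.02, 4.90 and 2.56 CPM in the islets, 11.3-fold higher in pancreas (log2 fold change 3.50, SE 0.343, edgeR adjusted p = 7.58e-07). The groups did not overlap, and islets 052 and 829, the samples with the least acinar RNA, had the lowest values. Tff3 was low in both, at 0.778 to 1.29 CPM in pancreas and 0 to 0.133 CPM in islets. Among the proposed receptors of trefoil peptides Ackr3 was 4.18-fold higher in pancreas, Cxcr4 stood at 13.4 to 16.6 and 6.57 to 9.80 CPM, and F2rl1, a protease-activated receptor, at 6.27 to 8.39 and 12.5 to 15.4 CPM.

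The same contrast was run on the 3 E16.5 pancreata and 5 islet samples labelled as Tff2 knockouts, in which Cre is driven by Pdx1 sequences, and these share no library with the controls. There 3707 genes were at least 2-fold higher (23.9%) and 2869 lower (18.5%) in pancreas. Of genes tested in both genotypes, 3316 were called higher in both, 90.3% of the control calls and 93.1% of the knockout calls. For lower genes the number was 2571, or 88.3% and 90.1%. Both sets came from the same 2 tables, so tissue, age and the counting difference between the tables changed together in both. In the second set 15 of the acinar proteases, 19 of the matrix genes and 28 of the replication genes were higher, and 7 of the hormone genes and 22 of the adult beta cell genes were lower. Ins2 was at -8.51 on the log2 scale there against -7.42 in controls, and Ctrb1 at 7.14 against 7.95; the difference between genotypes was not tested here. Counts of several other lists differed more between the sets. Respiratory chain genes went from 9 higher and 4 lower in controls to 2 and 5 in knockouts, Schwann and enteric neural genes from 5 and 4 to 7 and 1, and endothelial genes from 4 and 2 to 4 and 4. General epithelial genes went from 8 and 1 to 5 and 2, lymphocyte genes from 4 and 2 to 1 and 2, and interferon-stimulated genes from 2 and 9 to 2 and 6. Ddx3y was at -1.69 in the knockout libraries and -11.18 in controls, so the embryos of the 2 genotypes differed in their Y-linked RNA.

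**Figure D5:**
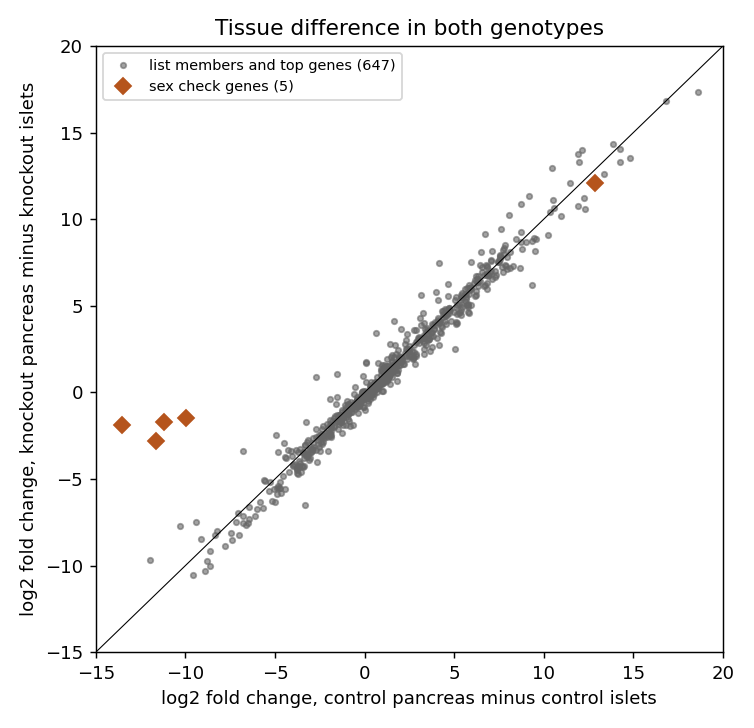
Log2 fold change of E16.5 pancreas minus islets in control libraries (x axis) and in knockout libraries (y axis) for 647 list members and top genes, with the line of equality. Of the 647, 564 lie within 1 log2 unit of the line, and 4 of the 5 sex check genes (diamonds), those of the Y chromosome, lie above it.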

How the data were processed

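Bulk mRNA libraries of 3 control E16.5 pancreata and 5 control adult islet samples were compared. The deposited values were raw counts per gene, in 1 table per tissue. Per the submitters' processing notes, reads were handled with Trimmomatic, STAR 2.6.0, HTSeq 0.11.1 and edgeR on mm10; the sources used here do not give the annotation release or strand setting. From the deposited counts, genes passing edgeR's filter were fitted together over the 8 libraries with TMM factors in edgeR 4.0.16 (R 4.3.3) by its quasi-likelihood test, and with glmTreat against a 2-fold change, with Benjamini-Hochberg adjustment at 0.05. The knockout libraries were fitted separately in the same way. Each SE is the absolute log2 fold change divided by the square root of the quasi-likelihood F statistic, not a fitted standard error. Where 1 tissue held only a few reads, as for Ptf1a in islets, counting error can exceed it. Counting depth limited genes to at least 1 read, worth 0.034 to 0.0518 CPM by library, and intervals and floors cover counting error only. Shares of counts were compared with exact two-sided permutation tests over 56 splits; 1 planned share and some genes of the lists are not reported here. Nothing in the labels pairs the groups, and p-values measure the spread between these animals. DESeq2 1.42.0 and limma 3.58.1 were alternatives. Unique shares were computed from 30-base windows of annotated transcripts (98.2% of tested genes had a value).

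The members and gene lists were chosen with earlier results of these data known. Named genes were the 15 most different in each direction with a mean of at least 20 CPM, a fixed panel, the sex check genes and, per list, up to 4 members with the largest change in each direction and 2 with the most counts. A further 30 genes, among them Ctrl, Gp2, Fev, Stx1a, Thy1 and Myh11, were named after their values were seen. Of the scripts, only the edgeR fit and its tests were run on simulated data, with far fewer changed genes than differed here.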

Additional observations from a re-analysis of the deposited data

Results flagged for a closer look

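In groups of 5 islet samples, 6 of 173 values examined had 1 sample standing apart from the other four by Dixon's criterion (gap over range above 0.71), which chance gives in about 1 of 20 groups. Islet 052 had the highest erythroid share, 0.00962% of counts against 0.00445 to 0.00486%, and the highest Hbb-bs, 51.2 CPM against 10.3 to 14.7 CPM. It also had the highest Aldh1a1, 2.48 CPM against 1.60 to 1.78 CPM, and the lowest Ern1, 166.7 CPM against 182 to 187 CPM. Islet 826 had the lowest Pdyn, 129.7 CPM against 222 to 240.4 CPM, and the lowest Rps29, 126.8 CPM against 136 to 139.8 CPM. In each of these genes the standing-apart islet stayed on the same side of every pancreas as the other islets.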

How the results depend on the processing

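Counts of genes past each threshold between pancreas and islets stayed within 1.5 times their main value, in control libraries under every scaling, filter, test and left-out library run and in knockout libraries under library totals and each left-out library. In control libraries this held also when only genes with a unique share of at least 90% were tested, an alternative chosen after seeing the data (3014 genes at least 2-fold higher). Of 3142 values of the 187 named genes under the alternatives, 3126 kept direction and side of the 0.05 threshold against no change. A further 6 lost that call, 9 gained it and 1 reversed: Rbpj was at 0.16 with library totals, the shift of the median given above. That test is passed by 86.5% of all genes. The 2-fold calls of single genes were not tallied in this way, and some were lost, as for Slc18a2 with DESeq2. Scaled to 4 transcription factors in place of 13 pan-endocrine genes, 33 in place of 12 endocrine list genes were lower. Gcg (-1.96), Sst (-1.79), Pyy (-0.89) and Nkx6-1 (-0.43) were among the genes that changed sign, and the reference itself sets this. Leaving out each library kept the direction of every share, but exact p could then not go below 0.0952 (without a pancreas) or 0.0571 (without an islet sample). The differences in percentage points (pancreas minus islets) ranged from 12.8 to 14 for acinar genes, -16.4 to -15.8 for hormones, 0.197 to 0.226 for the ribosomal list (all but 3 of its 25 members have unique shares below 90%, so that value is subject to the difference between the tables), 0.144 to 0.162 for erythroid genes, 6.88 to 7.41 for Ins1 of insulin, -38.0 to -34.4 for insulin of hormones and 0.261 to 0.308 for embryonic globins. No paired analysis was possible because the groups share no replicate numbers. Genes with only a few reads in 1 tissue, such as Cdkn2a and Reg2, are limited by depth.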
